A study of Mus musculus with 12 samples.

Results

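The respiratory chain and ATP synthase genes are described here in mouse hepatocytes with Abhd6 knockdown and in mouse livers with ABHD6 overexpression. Members were the protein-coding genes of the count table whose symbols name a subunit of complexes I to V. Complex I took the mt-Nd and Nduf genes without Ndufa4 and Ndufa4l2, complex II Sdha to Sdhd, and complex III mt-Cytb and Uqcr genes. Complex IV took the mt-Co genes, Cox4 to Cox8, Ndufa4 and Ndufa4l2, and complex V, the ATP synthase, the mt-Atp and Atp5 genes. Of 56748 genes in the table, 101 had such a symbol. Of these, 91 had at least 10 counts in every library of the hepatocytes and in every library of the livers, 79 encoded in the nucleus and 12 in mitochondrial DNA, and all 91 were tested in every comparison. The table uses older symbols for the ATP synthase, so Atp5g1, Atp5g2 and Atp5g3 are the genes of its subunit c. Poly-A RNA was sequenced from 4 groups of 3 libraries. Of the 6 libraries of primary mouse hepatocytes, which are liver parenchymal cells in culture, 3 had an siRNA against Abhd6 (siABHD6, genotype label ABHD6 knockdown) and 3 a scrambled siRNA (siScramble, genotype label WT). Of the 6 livers, 3 had ABHD6 overexpression limited to the liver (ABHD6_OE, genotype label LABHD6 OE) and 3 were GFP controls (GFP, genotype label WT). The series text gives the background as C57BL/6 and the overexpression vector as AAV8-TBG-ABHD6, an adeno-associated virus with a promoter directed to hepatocytes, injected into the tail vein. All 6 livers came from mice on a high fat diet, with 60% of calories from fat for 8 weeks, and the age of the mice is not in the sources used. The label for treatment of the hepatocytes is none. The labels call the 3 libraries of each group biological replicates and do not say what separates them, so whether the hepatocyte libraries came from separate cultures is not known, and their p-values cover the spread between these libraries.

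The respiratory chain passes electrons from NADH through complex I, and from succinate through complex II, by way of ubiquinone to complex III, cytochrome c and complex IV, where oxygen is reduced. Complexes I, III and IV pump protons across the inner mitochondrial membrane, and complex V uses the return of the protons to make ATP. Most subunits are encoded in the nucleus and imported, while a small core of complexes I, III, IV and V is encoded in mitochondrial DNA and transcribed there as long polycistronic RNAs. In liver this machinery supplies ATP for gluconeogenesis, urea synthesis and lipid metabolism.

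Library totals ran from 12295733 to 14453320 in siABHD6, from 12395020 to 13687998 in siScramble, from 13303141 to 15119953 in ABHD6_OE and from 15052684 to 16234658 in GFP. Abhd6 averaged 5.09 CPM in siABHD6 and 34.8 CPM in siScramble hepatocytes, and 147 CPM in ABHD6_OE and 35.7 CPM in GFP livers, in the direction of the labels. CPM, a share of counts, use the library size after TMM scaling within the 6 libraries of a comparison, unless another scale is named. The spread between replicates was 4.93% in hepatocytes and 28.1% in livers, as edgeR's biological coefficient of variation. The summed level of 6 hepatocyte markers was 12448 to 13153 CPM of the unscaled library totals in the 6 hepatocyte libraries and 55153 to 103342 in the 6 livers, with no marker at 0. The 7 Kupffer cell and macrophage markers summed to between 1.24 and 1.94 CPM in hepatocytes and to between 151 and 351 in livers. The 6 biliary markers summed to between 676 and 890 CPM in hepatocytes and to between 45 and 73.2 in livers. In bulk samples such as these, fewer cells of a type and less RNA per cell cannot be told apart.

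The first comparison addressed what knockdown of Abhd6 in hepatocytes did to these genes. Transcripts of the nuclear members stayed close to their control level as a whole, with a median log2 fold change of 0.00 over the 79, and a few moved. Ndufa2, an accessory subunit of the NADH-oxidising arm of complex I, was the largest change to pass the test, at 0.584 times its control level. Atp5g2, which encodes subunit c of the proton-driven ring of the ATP synthase, was at 0.815 times its control level. Of the 91 members, 4 rose and 4 fell (8.79%) at an adjusted p under 0.05 in edgeR's quasi-likelihood test, against 15.4% of all 13449 genes tested (7.81% higher and 7.61% lower). The median absolute log2 fold change was 0.05 over the members and 0.12 over all genes tested. At an unadjusted p under 0.05 there were 17 of 91 members, against 27% of all genes tested. The 2 groups did not overlap for 19 of 91 members (8 higher and 11 lower), against 31.2% of all genes tested (15.7% higher and 15.5% lower).

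**Figure D1:**
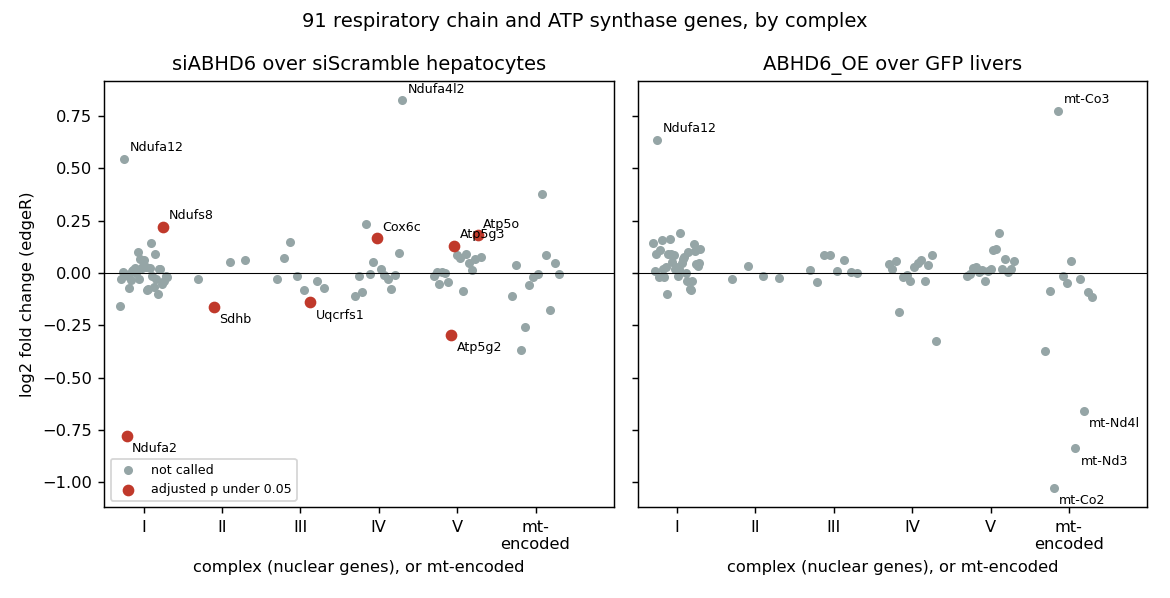
Log2 fold change of each of the 91 kept members (vertical axis) by complex for the nuclear genes and in 1 column for the 12 kept mitochondrially encoded genes (horizontal axis), for siABHD6 over siScramble hepatocytes on the left and ABHD6_OE over GFP livers on the right. Red points passed an adjusted p under 0.05 in edgeR; 8 nuclear members did so in hepatocytes and 0 members in livers, and points beyond 0.5 in size are also named.

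In complex I, 1 of 36 nuclear subunits fell and 1 rose. Ndufa2 (ENSMUSG00000014294; mm39 chromosome 18, 36875385 to 36877610, minus strand) had 28.2, 29.8 and 30 CPM in siABHD6 1, 2 and 3, against 48.0, 53.3 and 49.4 CPM in siScramble 1, 2 and 3. The highest siABHD6 library lay far below the lowest siScramble library. Its log2 fold change was -0.78 (SE 0.06, edgeR adjusted p = 6.75e-08), and it passed in all of the other settings tried, including the fit over all 12 libraries. Ndufa2 shares 66 bases with Tmco6 on the opposite strand, and no source used here says whether counting used the strand. Tmco6 had a log2 fold change of -0.16 (SE 0.21, edgeR adjusted p = 0.681), and its neighbour Ik one of -0.04 (SE 0.05, edgeR adjusted p = 0.659). Ndufs8, a subunit that carries iron-sulfur clusters on the electron path to ubiquinone, had 38.5, 38.5 and 36.8 CPM in siABHD6 libraries, against 33.5, 32.9 and 31.2 CPM in siScramble libraries. The groups did not overlap, and the log2 fold change was 0.22 (SE 0.06, edgeR adjusted p = 0.0239). Ndufc1, a membrane-arm subunit, came next on the higher side and did not pass (log2 fold change 0.14, SE 0.06, edgeR adjusted p = 0.0991).

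Ndufa12, another accessory subunit of complex I, showed how 1 library can stand apart. It had 168, 552 and 188 counts in siABHD6 1, 2 and 3, against 190, 227 and 193 counts in siScramble 1, 2 and 3. The library siABHD6 2 held more than any other, and the other 2 siABHD6 libraries, at 13.6 and 14.9 CPM, were close to the siScramble libraries, at 14.2 to 16.6 CPM. Ndufa12 did not pass (log2 fold change 0.55, SE 0.25, edgeR adjusted p = 0.168). Its processed copy Ndufa12-ps had 219, 171 and 173 counts in siABHD6 and 208, 223 and 215 in siScramble libraries, so the high count of siABHD6 2 was not shared by that copy.

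Complexes II and III each had 1 nuclear subunit that fell, and in both cases it was the iron-sulfur protein. Sdhb, the iron-sulfur subunit of succinate dehydrogenase, had 92.6, 96.5 and 88.0 CPM in siABHD6 libraries, against 97.3, 108 and 105 CPM in siScramble libraries (log2 fold change -0.16, SE 0.05, edgeR adjusted p = 0.0271). Uqcrfs1, the Rieske iron-sulfur protein of complex III, had 116, 122 and 122 CPM in siABHD6 libraries, against 131, 129 and 137 CPM in siScramble libraries (log2 fold change -0.14, SE 0.04, edgeR adjusted p = 0.0289). In both genes the groups lay next to each other without overlap. None of the other 3 subunits of complex II and none of the other 7 nuclear subunits of complex III passed.

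The subunits that carry iron-sulfur clusters did not move as a block. Of the 7 listed for complexes I to III, Sdhb and Uqcrfs1 fell, Ndufs8 rose, and Ndufs1 (log2 fold change -0.07), Ndufs7 (-0.05), Ndufv1 (-0.04) and Ndufv2 (-0.02) did not pass, with standard errors of 0.07 or less. The scaffold gene Iscu, on which these clusters are first assembled, fell by 2.24 (SE 0.08) on the log2 scale in the same libraries, with 11.2 ± 1.01 CPM in siABHD6 and 53.1 ± 3.45 CPM in siScramble hepatocytes (SD, n = 3 each).

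In complex IV, 1 of 14 nuclear members rose and 0 fell. Cox6c, a small subunit of cytochrome c oxidase, had 94.1, 93.9 and 100.1 CPM in siABHD6 libraries, against 87.7, 83.3 and 85.4 CPM in siScramble libraries (log2 fold change 0.17, SE 0.04, edgeR adjusted p = 0.0141). Its annotated span shares 5344 bases with Vps13b on the opposite strand, and Vps13b had a log2 fold change of -0.13 (SE 0.04, edgeR adjusted p = 0.0527). Cox4i1, the usual form of the largest nuclear subunit, missed the threshold at -0.11 (SE 0.04, edgeR adjusted p = 0.0830). Ndufa4l2, a low-expressed relative of the complex IV subunit Ndufa4 that is known for induction by hypoxia, had 1.94, 6.99 and 6.26 CPM in siABHD6, against 1.94, 3.95 and 2.75 CPM in siScramble libraries. These values overlapped, and the log2 fold change of 0.82 (SE 0.34) did not pass (edgeR adjusted p = 0.112).

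In the ATP synthase, 2 of 17 nuclear members rose and 1 fell. Atp5g2 had 92.3, 99.4 and 94.7 CPM in siABHD6 libraries, against 119, 112 and 121 CPM in siScramble libraries (log2 fold change -0.30, SE 0.04, edgeR adjusted p = 0.000101). Atp5g3, another gene for the same subunit c, moved the other way, with 246, 248 and 253 CPM in siABHD6 libraries, against 228, 222 and 233 CPM in siScramble libraries (log2 fold change 0.13, SE 0.04, edgeR adjusted p = 0.0207). Atp5g1, the third, was at 57.9, 64.1 and 58.0 CPM in siABHD6 and 60.8, 66.3 and 58.4 CPM in siScramble libraries, and the groups overlapped. The mature c subunit is the same protein from all 3 genes, which differ in their import sequences. The ratio of Atp5g2 to Atp5g3 counts, which does not depend on scaling, was 0.383 ± 0.0147 in siABHD6 and 0.515 ± 0.00821 in siScramble hepatocytes (SD, n = 3 each). Atp5o, which encodes the OSCP subunit that joins the catalytic head to its stalk, had 64.4, 65.7 and 59.9 CPM in siABHD6 libraries, against 54.6, 54.2 and 59.2 CPM in siScramble libraries. Its log2 fold change was 0.18 (SE 0.06, edgeR adjusted p = 0.0325), and the lowest siABHD6 and highest siScramble values were close. A second Atp5o entry, with 0 counts in all libraries, shares 1769 bases with it on the same strand. What counting did with reads under both is not stated.

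Of the 8 calls, those of Ndufa2 and Atp5g2 held without any 1 library. The others were each lost without some library, Cox6c without siScramble 2 or siABHD6 3 (edgeR adjusted p up to 0.0845), Atp5g3 without siScramble 1, siScramble 2 or siABHD6 3 (up to 0.112), Uqcrfs1 without siScramble 1, siScramble 3 or siABHD6 1 (up to 0.133), Sdhb without siScramble 2, siScramble 3, siABHD6 1 or siABHD6 3 (up to 0.151), Ndufs8 without siScramble 2, siScramble 3, siABHD6 1 or siABHD6 2 (up to 0.0959) and Atp5o without siScramble 1, siScramble 2, siABHD6 1 or siABHD6 2 (up to 0.153). DESeq2 called Ndufa2, Atp5g2, Atp5g3 and Cox6c alone, and the fit over all 12 libraries, whose spread is estimated from the livers too, called Ndufa2 alone.

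**Figure D2:**
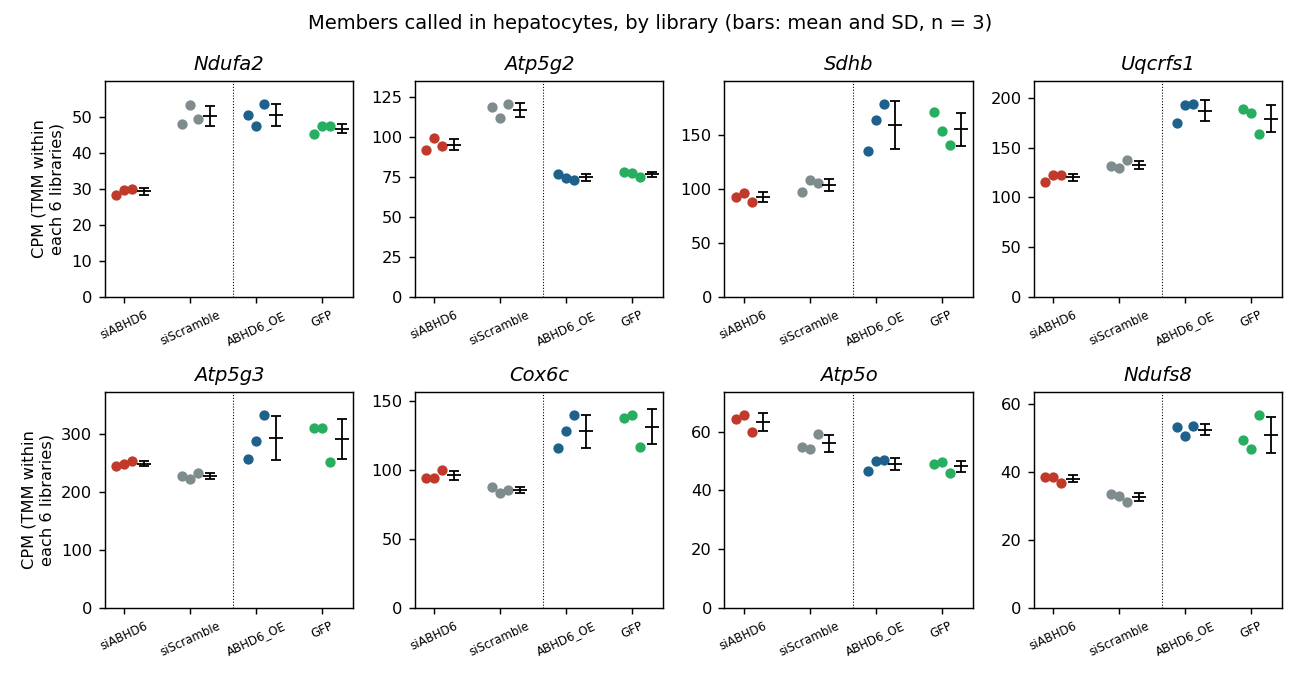
CPM per library (vertical axes, from 0, scaled within the 6 libraries of each system) of the 8 members called in hepatocytes, for siABHD6, siScramble, ABHD6_OE and GFP from left to right, with the mean and SD of each group of 3 beside the points. Ndufa2 at 28.2 to 30 CPM in siABHD6 hepatocytes stands clear of 48.0 to 53.3 CPM in siScramble hepatocytes, while the liver groups overlap for all 8 genes.

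No mitochondrially encoded gene passed the threshold with either manipulation, though without a filter on low counts mt-Nd4 and mt-Co2 passed in hepatocytes. Together the 13 genes took 3.11 ± 0.164% of all counts in siABHD6 and 3.05 ± 0.0665% in siScramble hepatocytes (SD, n = 3 each), and these shares overlapped (two-sided exact permutation p = 0.7; 3 against 3 cannot go below 0.1). They took 4.79 ± 0.222% in ABHD6_OE and 4.88 ± 0.523% in GFP livers (SD, n = 3 each), again with overlap (exact two-sided permutation p = 0.8). In hepatocytes 0 of the 12 kept genes passed edgeR's threshold, and 2 had an unadjusted p under 0.05 (mt-Nd4 and mt-Co3). mt-Co1, the catalytic subunit of complex IV, had a log2 fold change of 0.04 (SE 0.02), mt-Nd4, of the proton-pumping arm of complex I, 0.09 (SE 0.03), and mt-Cytb, the cytochrome b of complex III, -0.06 (SE 0.04). Without siABHD6 2, mt-Co1 and mt-Nd4 passed (edgeR adjusted p = 0.0432 and 0.00567), as did mt-Nd5, and without siABHD6 3 mt-Cytb passed (edgeR adjusted p = 0.0231). The ratio of mt-Cytb to mt-Co1 counts was 0.0995, 0.0948 and 0.102 in siABHD6 libraries, against 0.104, 0.106 and 0.107 in siScramble libraries. These did not overlap (exact two-sided permutation p = 0.1, the smallest possible), and the ratio of the group means was 0.934. The same held for counts of mt-Nd1 over mt-Co1, with a ratio of group means of 0.959 (exact two-sided permutation p = 0.1). For mt-Nd2 (0.968), mt-Nd4 (1.03) and mt-Nd5 (1.00) over mt-Co1 the groups overlapped.

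Levels of the mitochondrially encoded genes per length fell into 2 sets, in every group. Of 7 genes, mt-Co1 was highest, with 10479 CPM of the unscaled library total per kilobase in siABHD6, 10209 in siScramble, 11632 in ABHD6_OE and 12139 in GFP on average. In hepatocytes the other 6 of these, mt-Nd1, mt-Nd2, mt-Nd4, mt-Nd5, mt-Nd6 and mt-Cytb, averaged 1399 to 2672 in siABHD6 and 1457 to 2715 in siScramble on the same scale. The remaining 6 genes, mt-Co2, mt-Atp8, mt-Atp6, mt-Co3, mt-Nd3 and mt-Nd4l, which lie between mt-Co1 and mt-Nd4, were far lower. mt-Co2 averaged 42.3 in siABHD6, 54.3 in siScramble, 201 in ABHD6_OE and 401 in GFP on that scale, and mt-Nd3 averaged 4.71, 3.64, 31.1 and 55.4 in the same groups. mt-Atp8, which was not kept, had 2 to 30 counts. These 6 genes held between 0.211% and 1.87% of the mitochondrially encoded counts of a library.

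Of these 6 low genes, 5 have a near-identical annotated copy in nuclear DNA. On mm39 chromosome 1, from 24650616 to 24655278 on the minus strand, 7 annotated genes stand in the mitochondrial order and match mitochondrial genes. Over 4149 aligned bases there were 7 mismatches. Gm28661 was identical to mt-Co2 over 681 bases, Gm10925 to mt-Atp6 over 678, Gm28437 to mt-Co3 over 783, Gm10222 to mt-Nd4l over 294 and Gm28439 over 876 bases to mt-Nd4, and Gm28438 differed from mt-Nd3 at 1 base of 345. Gm28439 covers 63.6% of mt-Nd4 and Gm29216 31.8% of mt-Co1 (6 mismatches in 492 bases), while the 5 genes between them are covered over at least 99.0% of their length. The first 120 bases of mt-Nd3 and of its copy are shown because they hold the only base in 345 that tells them apart, marked by a capital.
mt-Nd3: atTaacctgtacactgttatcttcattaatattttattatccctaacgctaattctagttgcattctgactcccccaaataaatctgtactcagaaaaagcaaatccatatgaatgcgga
Gm28438: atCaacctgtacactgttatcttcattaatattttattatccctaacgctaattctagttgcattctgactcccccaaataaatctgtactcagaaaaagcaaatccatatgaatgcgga
For mt-Co2 and Gm28661 no base of the shared stretch tells them apart, as its first 120 bases, the same in both, illustrate.
mt-Co2: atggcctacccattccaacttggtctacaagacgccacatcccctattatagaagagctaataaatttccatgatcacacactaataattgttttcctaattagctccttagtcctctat
The 7 copies held 1582 to 2567 counts per hepatocyte library and 4152 to 7099 per liver library, and the 6 low genes held 899 to 1365 and 6096 to 15957. These sets do not match, since the copies include those of mt-Co1 and mt-Nd4, and mt-Atp8 has no listed copy. Gm29216, the copy of mt-Co1, alone held 538 to 1111 counts per hepatocyte library and 565 to 2920 per liver library. Nearly all reads of this stretch cannot be assigned to 1 place by their sequence, so the counts of mt-Co2, mt-Atp6, mt-Co3, mt-Nd3 and mt-Nd4l are uncertain. The same holds for reads from the parts of mt-Nd4 and mt-Co1 that are identical to their copies, so the counts of both are uncertain in part. No source used here says how such reads were counted, and the part of the copies in the low levels was not tested.

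**Figure D3:**
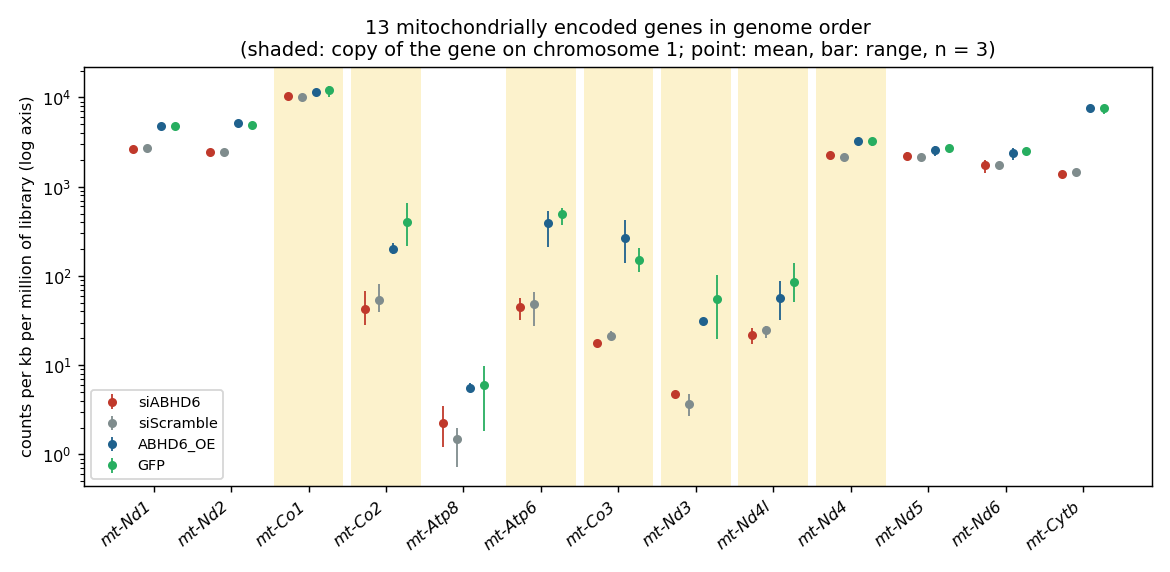
CPM of the unscaled library total per kilobase (log axis) for the 13 mitochondrially encoded genes in genome order, with the mean (point) and range (bar) of 3 libraries in siABHD6, siScramble, ABHD6_OE and GFP; shading marks genes with a copy on chromosome 1, partial for mt-Co1 and mt-Nd4. The 6 genes between mt-Co1 and mt-Nd4 reach at most 656 in any library, and the other 7 are at 1295 or more.

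The second comparison asked what ABHD6 overexpression did to these genes in livers on a high fat diet. Of the 91 members 0 passed edgeR's threshold, against 0% of the 13910 genes tested, and limma-voom and DESeq2 called 0 members, with 0.0576% of all genes called by DESeq2. The median log2 fold change was 0.03 over the 79 nuclear members and the median absolute value 0.05 over all 91, against 0.13 over all genes tested. At an unadjusted p under 0.05 there were 2 members, Ndufa12 and mt-Co2, against 2.16% of all genes tested. The groups did not overlap for 4 of 91 members (Ndufa12, Ndufs6 and Atp5j2 higher and Cox5b-ps lower), against 6.75% of all genes tested (3.22% higher and 3.53% lower). In simulated data made from these libraries, the test called 1.49% of genes changed 1.5-fold. It called 17.9% of those changed 2-fold and 80.3% of those changed 4-fold. Small changes would thus rarely be called among all genes of the livers. The changed genes were drawn from all genes tested, low ones included, so these are not the shares for the members alone.

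Ndufa12 was the nuclear member with the smallest p in livers. It had 12.7, 16.5 and 11.3 CPM in ABHD6_OE 1, 2 and 3, against 7.69, 10.2 and 8.21 CPM in GFP 1, 2 and 3. All ABHD6_OE livers lay above all GFP livers, and the log2 fold change was 0.64 (SE 0.20, unadjusted p = 0.0143, edgeR adjusted p = 1.00). Raw counts of its processed copy Ndufa12-ps were 151, 106 and 160 in ABHD6_OE and 186, 195 and 195 in GFP livers. Unlike the CPM of Ndufa12, those counts are not scaled for library size, and GFP 1 had the largest library total. The split of reads between the gene and its copy is uncertain. The next smallest p-values on the higher side were of the accessory complex I subunits Ndufb7 (log2 fold change 0.19, SE 0.12), Ndufa3 (0.16, SE 0.12) and Ndufa1 (0.14, SE 0.11) and of Atp5k, a small membrane subunit of the ATP synthase (0.19, SE 0.14). On the lower side they were of Cox5b-ps, a processed copy of Cox5b that the table lists as protein-coding (-0.19, SE 0.14), Ndufa8 (-0.10, SE 0.11), Ndufa4l2 (-0.33, SE 0.37), Ndufs4 (-0.08, SE 0.10) and Ndufs3 (-0.08, SE 0.12). Ndufa2, the largest change of the hepatocytes, had 50.3, 47.3 and 53.4 CPM in ABHD6_OE and 45.2, 47.3 and 47.5 CPM in GFP livers, a log2 fold change of 0.11 (SE 0.10) with overlapping groups.

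Among the mitochondrially encoded genes of the livers, fold changes of the 7 genes outside the low stretch ran from -0.11 to 0.06 on the log2 scale. The low genes scattered widely. mt-Co2 had 121, 121 and 166 CPM in ABHD6_OE, against 441, 143 and 249 CPM in GFP livers (log2 fold change -1.03, SE 0.39, unadjusted p = 0.0315 in edgeR). Its neighbour mt-Co3 had 111, 167 and 342 CPM in ABHD6_OE, against 86.4, 98.0 and 178 CPM in GFP livers (log2 fold change 0.78, SE 0.45). Both overlapped between groups, and both are among the genes with an identical nuclear copy.

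The livers also differed among themselves. The nuclear members of ABHD6_OE 3 had a median log2 deviation of 0.13 from the mean of the 6 livers, and those of GFP 3 and ABHD6_OE 1 of -0.09 and -0.08. In GFP 3 and ABHD6_OE 1 albumin took 4.88% and 3.83% of counts, against 7.54% to 8.68% in the other 4 livers. Without these 2 livers 0 members passed in edgeR, and the median of the nuclear members was 0.04.

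The responses of hepatocytes and livers were then set against each other in a fit of all 12 libraries. Ndufa2 was the only member whose response differed, lower with knockdown and not with overexpression (difference of log2 fold changes -0.87, SE 0.10, edgeR adjusted p = 0.00875), so 1 of 91 members passed, against 0.125% of the 15244 genes tested. No member differed in the higher direction, as did 0.0262% of all genes, and 3 of 91 had an unadjusted p under 0.05 in edgeR, against 6.98%. Without siABHD6 3 Ndufa2 missed the threshold (edgeR adjusted p = 0.0512). For Atp5g2 the difference was -0.24 (SE 0.09, edgeR adjusted p = 0.668). The next smallest p-values were of Cox5b-ps (0.44, SE 0.19), Atp5o (0.18, SE 0.10), Ndufa4l2 (1.16, SE 0.65), Cox6c (0.22, SE 0.13) and Ndufs8 (0.20, SE 0.11) on the positive side, and of Atp5j2 (-0.18, SE 0.09), Ndufb7 (-0.26, SE 0.14) and Ndufa1 (-0.29, SE 0.15) on the negative side, all with an edgeR adjusted p of 0.69 or more.

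The last comparison set siScramble hepatocytes against GFP livers, the controls of the 2 systems, to describe how transcripts of the machinery stand in each. These groups differ in culture, siRNA, diet, the GFP control treatment and the other cell types of whole liver at once, and their parts cannot be told apart. On the TMM scale over all 12 libraries, 85 of 91 members were lower in hepatocytes and 1 was higher, against 38.3% of all 15244 genes tested lower and 34.4% higher (72.6% in all). At an unadjusted p under 0.05 there were 86 of 91, against 74.7%, and 87 of 91 had no overlap between the groups, against 75.5%. The median log2 fold change was -0.91 over the 79 nuclear members and -2.22 over the 12 mitochondrially encoded ones, against -0.04 over all genes tested. The 12 include genes of the low stretch, whose counts are uncertain, here and in the median by library totals below. On the TMM scale the median of the 7 genes outside that stretch was -1.42. These values depend on the scaling. TMM set the effective library size at 1.32 ± 0.00593 times the total in siScramble hepatocytes and at 0.754 ± 0.0565 times in GFP livers (SD, n = 3 each). With library totals, chosen as an alternative after the data were seen, the median of all genes was 0.76, that of the nuclear members -0.11 and that of the mitochondrially encoded ones -1.39, with 43 of 91 members lower and 16 higher, against 22.3% of all genes tested lower and 58.1% higher. The median of the nuclear members lay below that of all genes. A change of scaling moves all genes by nearly the same amount, so the second scaling is no separate support for this order.

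**Figure D4:**
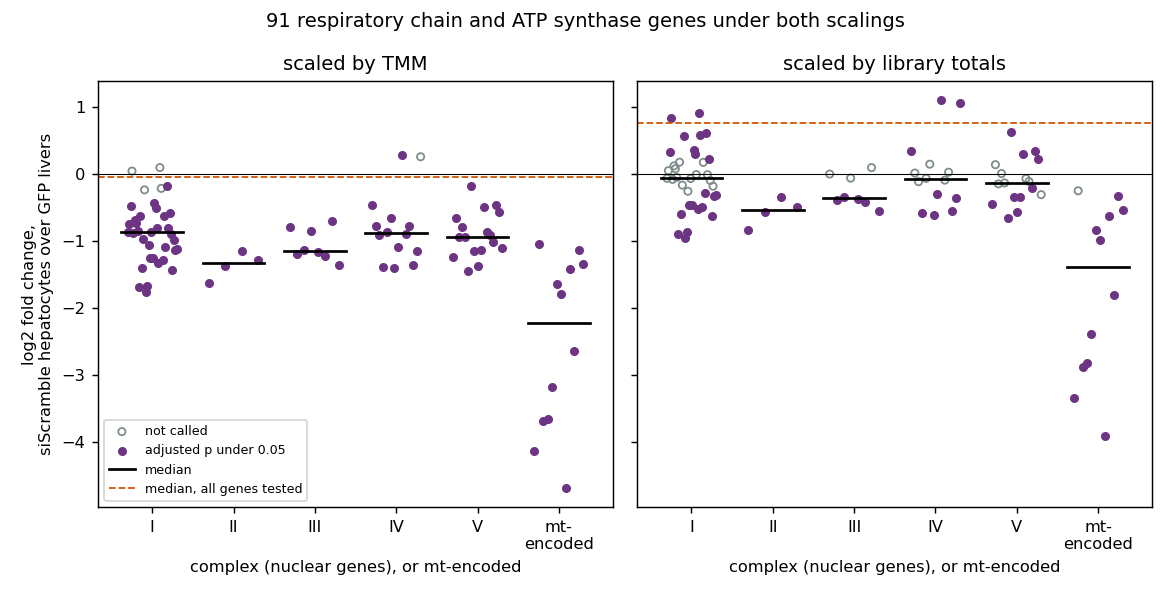
Log2 fold change of each of the 91 kept members in siScramble hepatocytes over GFP livers (vertical axis) by complex for nuclear genes and in 1 column for the mitochondrially encoded genes (horizontal axis), scaled by TMM on the left and by library totals on the right. Filled points passed an adjusted p under 0.05 in edgeR, solid bars are medians and the dashed line is the median of all genes tested. That line lies at -0.04 on the left and at 0.76 on the right, above the median of every complex. The change of scaling moves all genes by nearly the same amount, so both panels share this order.

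By complex, on the TMM scale, the median of the nuclear members was -1.33 for complex II (4 of 4 lower), -1.15 for complex III (8 of 8 lower), -0.94 for complex V (17 of 17 lower), -0.87 for complex IV (12 of 14 lower, 1 higher) and -0.87 for complex I (32 of 36 lower). With library totals the medians were -0.53, -0.35, -0.13, -0.08 and -0.06 in the same order. Complexes II and III thus had the lowest medians, an order that a change of scaling cannot test because it moves all complexes nearly alike. By library totals 4 of 4 and 5 of 8 of their members were still lower and none higher.

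The largest nuclear decreases were in complex I. On the scale of all 12 libraries, Ndufb10, an accessory subunit of the membrane arm, averaged 29.5 ± 0.396 CPM in siScramble hepatocytes and 100.3 ± 1.56 CPM in GFP livers (SD, n = 3 each; log2 fold change -1.76, SE 0.08, edgeR adjusted p = 4.41e-09). Ndufa6 (-1.69, SE 0.13) and Ndufb11 (-1.67, SE 0.07) followed, both accessory subunits. Sdha, the flavoprotein that oxidises succinate, averaged 243 ± 2.54 CPM in siScramble hepatocytes and 749 ± 120 CPM in GFP livers (SD, n = 3 each; log2 fold change -1.63, SE 0.13). Other large decreases were of Atp5g1 (-1.45, SE 0.08), Ndufs8 (-1.43, SE 0.08), Cox6c (-1.41, SE 0.09), Ndufa8 (-1.41, SE 0.09), Cox5b-ps (-1.38, SE 0.14), Atp5h, a stalk subunit of the ATP synthase (-1.37, SE 0.07), Sdhb (-1.37, SE 0.11) and Cox8a (-1.36, SE 0.11). All 12 passed with an edgeR adjusted p of 2.60e-06 or lower, and by library totals they stayed lower and passed, with log2 fold changes of -0.96 (Ndufb10) to -0.56 (Cox8a).

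The members that did not pass were Ndufc1, Ndufc2, Ndufb1, Ndufa12 and Ndufa4l2. Ndufc1, a membrane-arm subunit of complex I, averaged 38.3 ± 1.91 CPM in siScramble hepatocytes and 35.7 ± 3.04 CPM in GFP livers (SD, n = 3 each; log2 fold change 0.10, SE 0.09), and by library totals it was higher (0.91, SE 0.07). On the TMM scale the only increase was of Cox7a2l, also called SCAFI, which takes part in binding complexes III and IV into supercomplexes. It averaged 130 ± 1.74 CPM in siScramble hepatocytes and 106 ± 17.8 CPM in GFP livers (SD, n = 3 each; log2 fold change 0.29, SE 0.11, edgeR adjusted p = 0.0348; 1.10, SE 0.08, by library totals). That call held without GFP 3 and was lost without any other library of the 2 groups (edgeR adjusted p up to 0.0755). Its relative Cox7a2, the subunit that occupies the same place in complex IV, was lower (-1.09, SE 0.07, and -0.29, SE 0.09, by library totals), and the ratio of Cox7a2l to Cox7a2 counts was 2.26 ± 0.0229 in siScramble hepatocytes and 0.875 ± 0.197 in GFP livers (SD, n = 3 each). The groups did not overlap for this ratio, which needs no scaling (exact two-sided permutation p = 0.1, the smallest possible).

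Unequal change within a family also appeared for subunit c. The ratio of Atp5g2 to Atp5g1 counts was 1.90 ± 0.192 in siScramble hepatocytes and 0.784 ± 0.0347 in GFP livers (SD, n = 3 each). Atp5g1 and Atp5g3 (-1.14, SE 0.11) were lower in hepatocytes by more than Atp5g2 (-0.18, SE 0.07, edgeR adjusted p = 0.0282), whose sign turned by library totals (0.62, SE 0.09) while Atp5g1 (-0.65) and Atp5g3 (-0.35) stayed lower. The inhibitor of ATP synthase hydrolysis, Atpif1, which is no subunit and lay outside the member rule, went the opposite way to the subunits, with 30.8 ± 2.26 CPM in siScramble hepatocytes and 7.28 ± 0.155 CPM in GFP livers (SD, n = 3 each; log2 fold change 2.08, SE 0.16, edgeR adjusted p = 3.56e-07).

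The mitochondrially encoded genes were lower in hepatocytes to very different degrees. Among the 7 outside the low stretch, mt-Cytb had the largest log2 fold change (-3.18, SE 0.14), followed by mt-Nd2 (-1.79, SE 0.12), mt-Nd1 (-1.64, SE 0.12), mt-Nd4 (-1.42, SE 0.12), mt-Nd6 (-1.35, SE 0.16), mt-Nd5 (-1.14, SE 0.15) and mt-Co1 (-1.05, SE 0.14). All 7 passed on the TMM scale (edgeR adjusted p of 3.09e-05 or lower), and by library totals mt-Co1 did not. mt-Nd6, the only one of them on the minus strand, shares 14 bases with mt-Nd5 on the opposite strand. No source used here says whether counting used the strand, so how reads of these genes were split is uncertain. The ratio of mt-Cytb to mt-Co1 counts was 0.104, 0.106 and 0.107 in the siScramble libraries, against 0.443, 0.477 and 0.474 in the GFP livers. It was 0.493, 0.473 and 0.495 in the ABHD6_OE livers. Every liver was thus more than 4 times above every hepatocyte library in this ratio, which no scaling of libraries can change. Part of mt-Co1 has a copy on chromosome 1, so its count is uncertain in part. The genes of the low stretch had larger values (mt-Nd3 -4.69, mt-Atp6 -4.14, mt-Co2 -3.69, mt-Co3 -3.66 and mt-Nd4l -2.65), and their reads are hard to tell from those of the nuclear copies. The 13 genes took 3.05 ± 0.0665% of counts in siScramble hepatocytes and 4.88 ± 0.523% in GFP livers (SD, n = 3 each), without overlap (exact two-sided permutation p = 0.1, the smallest possible). All nuclear members, kept or not, took 0.843 ± 0.00808% of counts in siScramble hepatocytes and 0.945 ± 0.132% in GFP livers, with overlap (exact two-sided permutation p = 0.4, n = 3 each). With the library sizes scaled by TMM within each system as the denominator, they took 0.844 ± 0.00951% and 0.953 ± 0.0695% in the same groups, without overlap (exact two-sided permutation p = 0.1, the smallest possible, n = 3 each). TMM within each system does not put hepatocytes and livers on 1 scale, so no conclusion is drawn from this denominator.

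**Figure D5:**
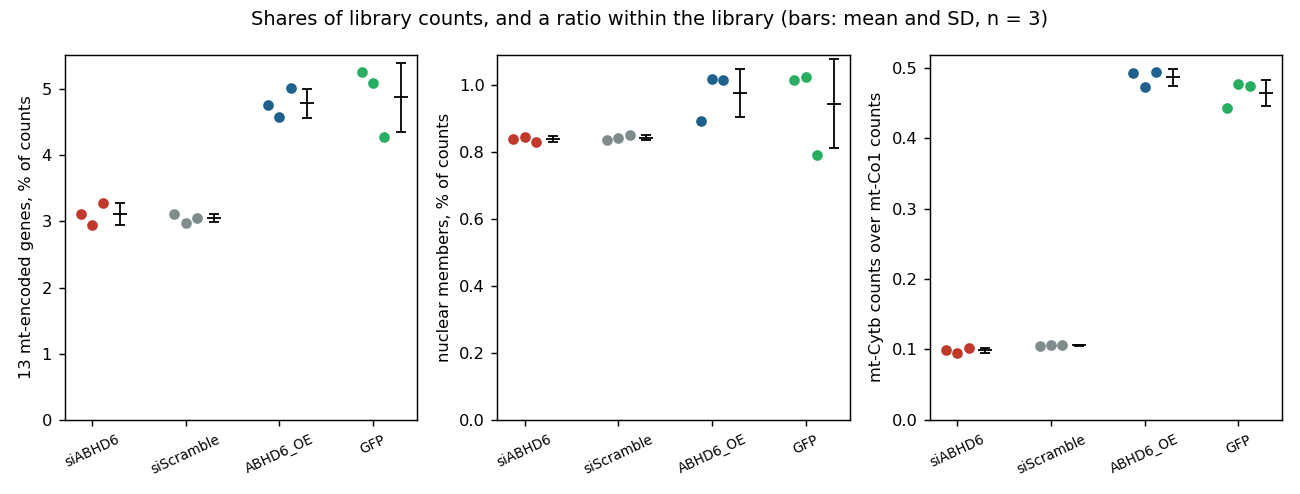
Percent of library counts in the 13 mitochondrially encoded genes (left) and in all nuclear members, kept or not (middle). The right panel gives the ratio of mt-Cytb to mt-Co1 counts. Values are per library in siABHD6, siScramble, ABHD6_OE and GFP, with the mean and SD of 3 beside the points. In each panel the siABHD6 and siScramble hepatocytes lie close together; the ratio is 0.0948 to 0.107 in hepatocytes and 0.443 to 0.495 in livers.

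Per length, Sdhd in complex II and Cox6a1 in complex IV had the highest mean of the nuclear members in all groups, and complex V had different leaders in hepatocytes and livers. Levels here are CPM scaled by TMM over all 12 libraries and divided by the gene length of the table in kilobases. The ranking depends on that length, which was 6443 bases for Atp5l, 5628 for Ndufb2 and 616 for Atp5k. Before division by length, Atp5k was below Atp5l, at 15.1 and 45.1 CPM in siScramble hepatocytes. In complex IV, Cox6a1 was the highest nuclear member, with 218, 217, 387 and 393 in siABHD6, siScramble, ABHD6_OE and GFP, and Ndufa4l2 the lowest, with 3.55, 2.00, 1.33 and 1.67. In complex V, Atp5b, the catalytic beta subunit, led in hepatocytes (209 in siABHD6 and 206 in siScramble) and Atp5a1, the alpha subunit, in livers (413 in ABHD6_OE and 418 in GFP), and Atp5l was lowest (7.31, 7.0, 13.3 and 13.2 in the 4 groups). In complex II, Sdhd was highest in all groups (87.2, 82.6, 197 and 201), within 1 SD of Sdha in livers (177 ± 19.2 in ABHD6_OE and 181 ± 29.0 in GFP, SD, n = 3 each). In complex III, Uqcrfs1 had the highest mean in siScramble, ABHD6_OE and GFP (73.8, 179 and 172), and in siABHD6 hepatocytes Uqcr10 (68.3 ± 3.62), Uqcrfs1 (67.6 ± 2.26) and Uqcr11 (67.1 ± 2.22) did not differ beyond their SDs (n = 3). In complex I, Ndufb11 had the highest mean in livers (126 in ABHD6_OE and 121 in GFP), within 1 SD of Ndufa1 in ABHD6_OE (123 ± 11.0) and of Ndufa8 in GFP (114 ± 11.7; SD, n = 3 each). Ndufb2 was lowest in every group, at 0.774, 0.730, 1.61 and 1.52. The table lists Gm42420, a protein-coding gene with 0 counts in the control libraries, over 4022 bases of Ndufb2 on the same strand, and what counting did with reads under both is not stated.

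Forms of complex IV subunits that are typical of muscle, brown fat, lung or testis were at or near 0. Cox4i2 (lung) had at most 8 counts in a library, Cox6a2 (heart and muscle) at most 6, Cox6b2 (testis) at most 8 and Cox8b at most 2, and Cox7b2 and Cox8c had 0 in all 12. Cox7a1, the heart and muscle form that brown fat also uses, had 8, 10 and 17 counts in siABHD6, 7, 14 and 10 in siScramble, 1, 15 and 9 in ABHD6_OE and 13, 32 and 7 in GFP libraries. The common forms Cox4i1, Cox6a1, Cox6b1, Cox7a2, Cox7b and Cox8a were kept in both systems. Also not kept were Ndufb11b and a second identifier of Atp5o (ENSMUSG00000116933), each with 0 counts in all libraries, and mt-Atp8.

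Promoters of the nuclear members were examined for 5 motifs known from this gene class. RefSeq promoter sequences of build GRCm38.p6, from 250 bases before to 50 after the annotated start, were matched by symbol for 65 of the 79 kept nuclear members (70 promoters). The letters CGCATGCG, the core of the site of nuclear respiratory factor NRF1, were in 12.9% of these, against 1.87% of all 32851 promoters. CCGGAAG, an ETS motif of the kind bound by NRF2/GABP, was in 24.3% and 8.86%, AAGATGGC (YY1) in 14.3% and 2.75%, TCAAGGTCA (ERR-alpha) in 2.86% and 0.423%, and CCAAT (NF-Y) in 40% and 37.4%, with both strands searched. CGCATGCG reads the same on both strands, and none of the 5 contains another. The promoters of Atp5g2, which fell in hepatocytes, and of Ndufs8, which rose, are shown with the matches in capitals as examples that hold motifs. The promoters of Uqcrfs1, which also fell, and of Ndufb10, the largest nuclear decrease between the controls, held none of the 5.
Atp5g2, chr15:102670998-102671297, minus strand, NRF1 motif: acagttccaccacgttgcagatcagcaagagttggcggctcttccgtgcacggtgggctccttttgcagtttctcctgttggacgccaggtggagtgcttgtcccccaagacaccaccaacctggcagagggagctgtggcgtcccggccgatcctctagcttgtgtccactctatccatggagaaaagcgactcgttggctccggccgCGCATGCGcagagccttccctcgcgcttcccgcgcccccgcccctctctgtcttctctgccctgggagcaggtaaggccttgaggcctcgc
Ndufs8, chr19:3912725-3913024, minus strand, NF-Y motifs and, on the opposite strand, an ETS motif: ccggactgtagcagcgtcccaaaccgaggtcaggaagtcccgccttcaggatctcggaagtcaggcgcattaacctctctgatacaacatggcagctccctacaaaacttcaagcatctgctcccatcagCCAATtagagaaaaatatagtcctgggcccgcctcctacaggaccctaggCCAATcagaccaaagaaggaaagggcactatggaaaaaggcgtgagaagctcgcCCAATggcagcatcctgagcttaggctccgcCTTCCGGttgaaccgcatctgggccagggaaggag
A match here is a description of the sequence and was not tested against the fold changes.

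Genes around the complexes were counted from lists of the same pathway, and of all genes tested in hepatocytes 7.81% rose and 7.61% fell (15.4% in all). The share called was 22.2% for the tricarboxylic acid cycle and 6.49% to 14.3% for the other 5 lists, so most lists lay near or below that background. In siABHD6 over siScramble hepatocytes, 2 of 50 tested assembly factors rose and 5 fell. Sco1, a copper chaperone of complex IV, rose (log2 fold change 0.35, SE 0.09, edgeR adjusted p = 0.0116), and Atpaf1, which helps to build the ATP synthase head (-0.40, SE 0.10, edgeR adjusted p = 0.00888), Coa8 (-0.33, SE 0.09) and Ttc19, of complex III (-0.29, SE 0.08), fell. Of 29 genes for expression of mitochondrial DNA, 0 rose and 2 fell, Lrpprc, which stabilises mitochondrial mRNAs (-0.29, SE 0.05, edgeR adjusted p = 0.000325), and Tfb2m, a transcription factor of mitochondrial DNA (-0.27, SE 0.09), while Tfam, which packages it, did not pass (0.03, SE 0.07). Of 14 nuclear regulators 0 rose and 2 fell, Gabpa (-0.19, SE 0.06) and Yy1 (-0.15, SE 0.04), and the coactivator Ppargc1a did not pass (0.31, SE 0.16). Among 17 electron carriers and entry points, Coq2 (-0.37, SE 0.06) and Coq5 (-0.25, SE 0.08), enzymes of ubiquinone synthesis, fell and 0 rose. Cytochrome c itself (Cycs, -0.07, SE 0.06), cytochrome c1 (Cyc1, 0.00, SE 0.04) and the acyl carrier subunit Ndufab1 (-0.01, SE 0.06) did not pass. Of 18 genes of the tricarboxylic acid cycle 1 rose (Idh2, 0.16, SE 0.05) and 3 fell (Suclg1, -0.14, Idh3b, -0.14, and Mdh2, -0.13, each with SE 0.04), and of 77 mitochondrial ribosome genes 1 rose (Mrpl17) and 4 fell (Mrps22, Mrpl23, Mrpl13 and Mrps7). The median log2 fold changes of these 6 lists ran from -0.07 to 0.01. In livers 0 genes of these lists passed in edgeR.

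Between siScramble hepatocytes and GFP livers the surrounding lists differed in degree, on the TMM scale, the only one computed for them, where 38.3% of all genes tested were lower and 34.4% higher (72.6% in all). In total calls the assembly factors (68%), the genes for expression of mitochondrial DNA (62.1%) and the mitochondrial ribosome (58.4%) lay below that background. All 18 genes of the tricarboxylic acid cycle were lower (median log2 fold change -0.84), as were 13 of 17 electron carriers and entry points (median -0.64), with Cycs at -0.95 (SE 0.09) and Cyc1 at -1.03 (SE 0.08). Of 50 assembly factors 34 were lower and 0 higher (median -0.51). Of 29 genes for expression of mitochondrial DNA, 16 were lower and 2 higher (median -0.38), with Tfam at -1.13 (SE 0.10). Mitochondrial ribosome genes were less one-sided, with 37 of 77 lower and 8 higher (median -0.23), as were nuclear regulators, with 8 of 16 lower and 6 higher, among which Ppargc1a was at -1.74 (SE 0.30).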

How the data were processed

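The count of reads per gene in each of the 12 libraries was used as the authors deposited it, unnormalized. HISAT2, DESeq2 and build mm39 are listed in the submitters' processing notes, without versions. No source used here names the counting program, the annotation release, the strandedness or the read layout. The labels' protocols name Trizol extraction and poly-A enrichment. Every column matched 1 sample, 0 were left over, and 0 rows lacked a gene name. The deposited FPKM table was not used.

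Each manipulation was fitted on its own 6 libraries, and the control comparison and the difference between responses on all 12, with edgeR 4.0.16 in R 4.3.3 (filterByExpr, TMM, quasi-likelihood F test, Benjamini-Hochberg adjustment over all genes tested, calls at an adjusted p under 0.05). Shares and ratios per library were compared by exact two-sided permutation. Members, lists and the rule for named genes were chosen with earlier results of these data known. Named were the 13 mitochondrially encoded genes, called nuclear members (at most 12 a direction, or the 5 smallest p-values where few were called), tissue forms, iron-sulfur subunits, the highest and lowest member per length of each complex, and of the lists a few fixed genes and at most 4 called genes. The highest complex I member per length in hepatocytes is not reported here. Sequences of the mitochondrial genes and of their copies came from GENCODE transcripts of build GRCm38, matched by gene identifier, and were aligned with Biopython 1.88. Coordinates are mm39 unless GRCm38.p6 is named.

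Alternatives were RLE and upper-quartile scaling, omission of mt- genes, no filter, a filter of 1 CPM, DESeq2 1.42.0, limma-voom 3.58.1, a 12-library fit, the replicate number as a block, other denominators for shares, and leaving out each library. Library totals without a factor, and leaving out 2 livers together, were added after the data were seen. In simulated counts of the hepatocyte comparison (13449 genes), 79.1% of the genes changed 1.5-fold were called, 85.1% of those changed 2-fold and 95.5% of those changed 4-fold. Library totals of 12295733 to 16234658 limit the precision of low genes. Tables and figures used Python 3.11.15, pandas 2.3.3, scipy 1.17.1 and matplotlib 3.10.9.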

Additional observations from a re-analysis of the deposited data

How the results depend on the processing

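In siABHD6 over siScramble hepatocytes, where 4 members were higher and 4 lower, no filter gave 7 higher and 5 lower (adding Ndufa12, Ndufa4l2, mt-Nd4 and mt-Co2), DESeq2 2 higher and 2 lower, and a fit over all 12 libraries 0 higher and 1 lower. Leaving out 1 library at a time gave 0 to 6 higher and 2 to 5 lower. In ABHD6_OE over GFP livers the counts stayed at 0 in every setting. In siScramble hepatocytes over GFP livers, library totals gave 16 higher and 43 lower in place of 1 and 85, with a median of -0.11 over the nuclear members, and leaving out 1 library gave 0 to 1 higher. The difference between the responses had 0 to 1 members lower without 1 library. Without 1 library the median of the nuclear members ran from -0.020 to 0.0072 in hepatocytes, from -0.022 to 0.075 in livers, from -0.94 to -0.87 between the controls and from -0.072 to 0.037 for the difference. The difference in the percent of counts from mitochondrially encoded genes ran from -0.0235 to 0.140 in hepatocytes and from -0.388 to 0.101 in livers, so its sign changed with the library left out in both, and from -2.12 to -1.64 between the controls. The cause of these shifts was not tested.

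With the replicate number as a block, hepatocytes had 5 members higher and 4 lower, with all 8 calls kept and Ndufa4l2 added, and the controls 1 higher and 84 lower; no other count changed by the block. Deviations from the group means correlated between equal numbers at -0.0107 to -0.00354 in hepatocytes and at -0.42, 0.44 and -0.13 in livers, so no pairing was assumed. Among single members, mt-Co2 in hepatocytes ran from -0.88 to 0.038 without 1 library and passed without siABHD6 1 (edgeR adjusted p = 0.00386). Between the controls, Ndufa12 ran from -0.0053 to 0.21 and Ndufa4l2 from -0.034 to 0.48, both uncalled. Counts of 2 to 30 for mt-Atp8, and reads shared with the copy on chromosome 1, limit what the low mitochondrial genes can show. Groups of 3 are too small for a test of single outlying libraries.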
